A study of Mus musculus with 4 samples.

Results

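Matrix metalloproteases were examined as 10 genes: Mmp2, Mmp3, Mmp9, Mmp10, Mmp11, Mmp12, Mmp13, Mmp14, Mmp15 and Mmp19. They were taken by symbol from the deposited count table, where each had its own row, 10 of 24907 genes in all. The table holds RNA-seq counts from ASZ001, a mouse line grown from a basal cell carcinoma, a skin tumour of keratinocyte origin. In 2 libraries, labelled c-FOS, the cells carried a doxycycline-inducible vector with the AP-1 subunit c-FOS. In the 2 libraries labelled control, the inducible vector was empty. Cells of both groups received doxycycline, and a c-FOS group without the drug was not among the libraries, so induction of c-FOS and any other way in which the transfected cells differed cannot be told apart. The sources used here do not say whether the cells of a group were a clone or a pool, how long the drug was given, or whether replicates were separate cultures. P-values therefore speak only to the spread between these libraries, and that spread may be technical.

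Matrix metalloproteases are zinc-dependent enzymes that cut collagens, fibronectin, laminins and other matrix proteins, and also release growth factors and cleave surface receptors. Most are made as inactive precursors, held so by a cysteine in the propeptide, and are switched on by other proteases inside the secretory pathway or outside the cell. Tissue inhibitors of metalloproteases (TIMPs) bind the active site. In skin, collagenases and stromelysins are scarce at rest and are made at wound edges and in invasive tumours, and AP-1, the dimer of FOS and JUN proteins, is a textbook regulator of several of their genes.

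Summed over genes, the deposited counts came to 29200592 and 32465409 in the c-FOS libraries and to 28405433 and 29822437.5 in the control libraries. Fos itself was at 296.8 and 313.4 counts-per-million (CPM) in the c-FOS libraries, against 0.404 and 0.351 CPM in the control libraries, which fits the labels; reads of the vector and of the resident gene cannot be told apart. The basal keratinocyte keratin genes Krt5 (at least 3733 CPM) and Krt14 (at least 4800 CPM) were abundant in all 4 libraries. Both were lower with c-FOS, with log2 fold changes of -1.60 (Krt5) and -0.53 (Krt14). Of 12780 genes that passed a filter on low counts, 67.2% passed at 0.05 in the quasi-likelihood test of edgeR (p-values adjusted by Benjamini and Hochberg's method over all genes tested), 33.8% as higher and 33.4% as lower with c-FOS. Of the genes that passed, 50.4% were higher, or 35.4% when libraries were scaled by their totals alone, a setting that put the median log2 fold change of all genes at -0.14 in place of -0.01. The libraries of the groups did not overlap in 83.6% of the genes tested.

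Of the 10 metalloprotease genes, 7 rose with c-FOS, 1 fell, 1 did not pass and 1 was too low to test. Beside this, 33.8% of all genes tested passed as higher and 33.4% as lower. The 7 include Mmp19, which passed the filter only through the c-FOS libraries, on 17.5 counts or fewer, and lost its call under 3 alternatives. The sizes of the increases were far apart. The collagenase gene Mmp13, the stromelysin gene Mmp10 and the elastase gene Mmp12 were at 89.4-fold to 154-fold higher levels with c-FOS, and the stromelysin gene Mmp3 at a 7.19-fold higher level. The membrane-anchored Mmp14, the most abundant of the family per kilobase in both groups, rose by 1.64-fold. Among all genes tested 3.44% passed and were higher by 4-fold or more, and 7.75% by 2-fold or more, against 4 and 5 of the 9 metalloprotease genes tested, with Mmp19 as the fifth. These genes were chosen with results of these data known, so the shares are a description and not a test. In bulk libraries, more cells that make a transcript and more of it per cell cannot be told apart.

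**Figure D1:**
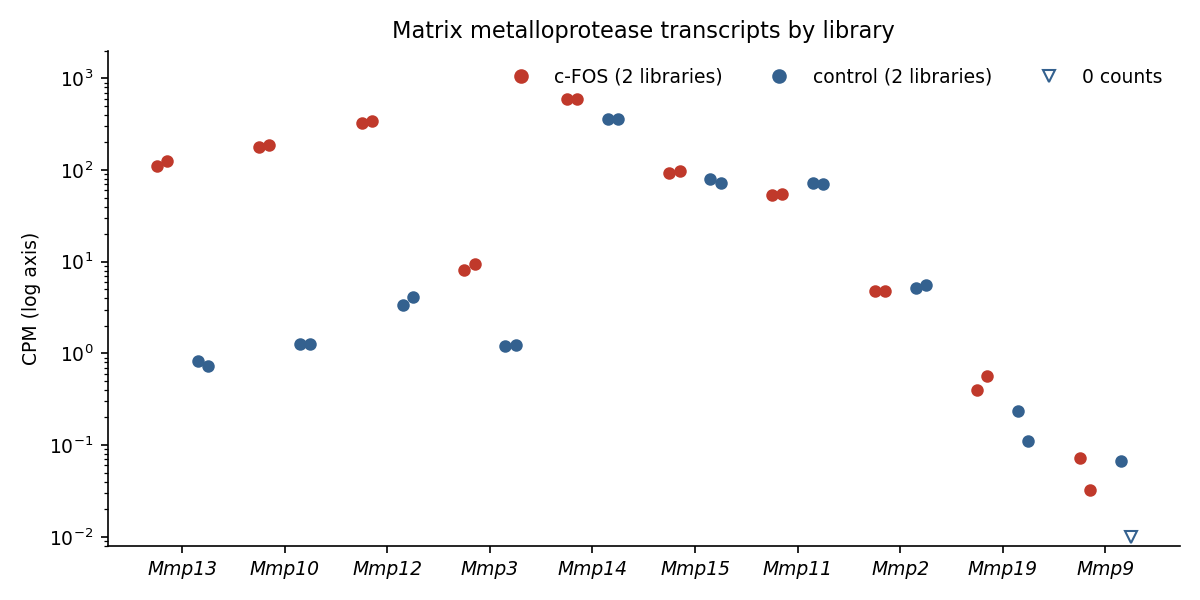
Level of each of the 10 metalloprotease genes in CPM on a log axis, with 1 point per library (c-FOS left and control right within each gene; an open triangle marks 0 counts). Mmp13, Mmp10 and Mmp12 lie at 111 CPM or above in both c-FOS libraries and at 4.15 CPM or below in both control libraries, while the levels of Mmp14, Mmp15, Mmp11 and Mmp2 in the groups lie close together.

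Mmp13 encodes a collagenase that cleaves fibrillar collagens and is the main interstitial collagenase of mouse tissues. It had counts of 3099 and 3921 in the c-FOS libraries, against 24.5 and 23 in the control libraries. This was 111 and 127 CPM with c-FOS and 0.824 and 0.735 CPM in control cells. Both c-FOS libraries stood far above both control libraries, and the libraries of a group differed by at most 0.18 on the log2 scale. The groups did not overlap in 83.6% of all genes tested. In log2 terms the fold change was 7.27 ± 0.11 (SE), and the adjusted p 2.02e-14 from edgeR (n = 2 per group), which placed Mmp13 at rank 34 of 12780 tested genes by fold change.

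Mmp10 encodes a stromelysin, an enzyme with broad matrix substrates that also activates procollagenases, and in wounded skin it is made by keratinocytes at the migrating edge. Its level was 176 and 186 CPM in the c-FOS libraries, against 1.26 and 1.28 CPM in the control libraries (181 ± 6.70 against 1.27 ± 0.0117 CPM; SD, n = 2 per group). The groups did not overlap, as in 83.6% of all genes tested, and neither pair of replicates differed by more than 0.08 on the log2 scale. The log2 fold change was 7.14 ± 0.08 (SE; edgeR adjusted p = 6.71e-16), rank 36 by fold change.

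Mmp12, known as macrophage elastase, degrades elastin and other matrix proteins. It had the highest CPM of the secreted metalloproteases with c-FOS, 328 and 346 CPM in the c-FOS libraries against 3.38 and 4.15 CPM in the control libraries. This amounted to a log2 fold change of 6.48 ± 0.07 (SE; edgeR adjusted p = 6.71e-16), rank 60. Replicates differed more in the control group, by 0.30 on the log2 scale, than in the c-FOS group, by 0.08, and both differences are small beside the distance between the groups. Since Mmp12 is a macrophage gene in many tissues, macrophage markers were read in the same libraries. Of 9 macrophage markers with a row, 6 stayed below 1 CPM in every library, among them the leukocyte gene Ptprc (at most 0.0899 CPM), and Adgre1, Itgam, Aif1 and Mrc1. The other 3 rose, Csf1r to 18.4 and 18.5 CPM in the c-FOS libraries against 0.387 and 0.224 CPM in the control libraries (tested only through the c-FOS libraries), and on the log2 scale Cd14 rose by 0.68 and Cd68 by 0.37. Beside this, 33.8% of all genes tested rose. The summed level of the 9 markers was 41.5 to 45.0 CPM with c-FOS and 17.0 to 18.9 CPM in control cells; its part in the Mmp12 value was not tested.

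Mmp3 encodes a stromelysin close in sequence to Mmp10. It had counts of 227.5 and 294 in the c-FOS libraries and of 35.5 and 39 in the control libraries, or 8.18 and 9.49 CPM with c-FOS against 1.19 and 1.25 CPM in control cells. Its log2 fold change was 2.85 ± 0.16 (SE; edgeR adjusted p = 3.07e-09). In control cells Mmp3 and Mmp10 were at similar levels per kilobase of gene model (0.682 ± 0.0205 and 0.737 ± 0.00680 CPM per kilobase; SD, n = 2), but with c-FOS Mmp10 was at 105 ± 3.89 and Mmp3 at 4.94 ± 0.519 CPM per kilobase. The reference transcripts of the pair are 75.7% identical over 1704 aligned bases and share an exact run of 104 bases, so reads could be assigned to the wrong gene of the pair, in a number the table does not show. The Mmp10 count was 21.6 and 19.6 times the Mmp3 count in the c-FOS libraries and 1.06 and 1.03 times in the control libraries, and how many reads of Mmp3 came from Mmp10 transcripts was not tested. Other pairs among Mmp3, Mmp10, Mmp12 and Mmp13 share no exact run longer than 18 bases.

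**Figure D2:**
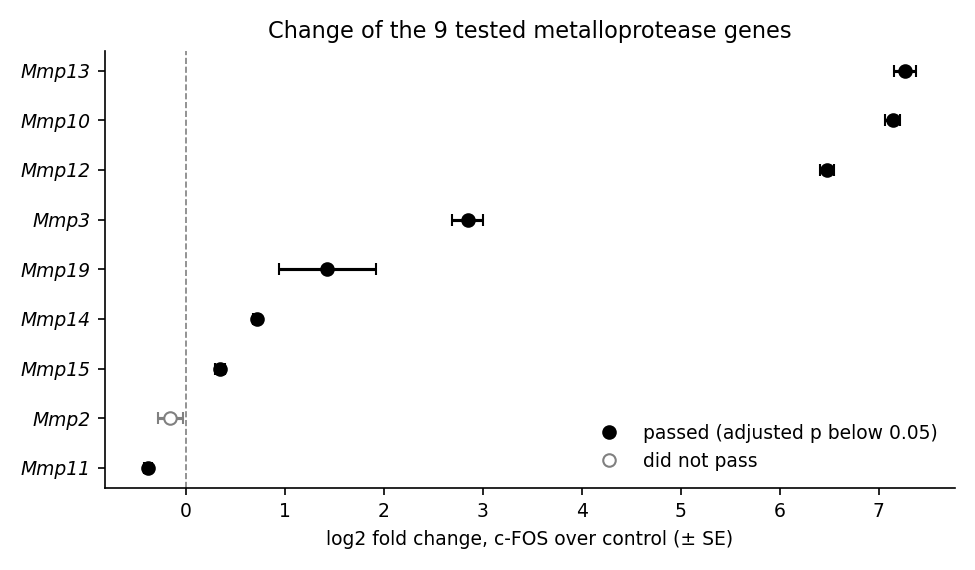
Log2 fold change of c-FOS over control for the 9 metalloprotease genes tested, with the standard error of the fit as a bar; filled points passed at 0.05 (edgeR, adjusted). Mmp13, Mmp10 and Mmp12 lie between 6.48 and 7.27, Mmp3 at 2.85, and the others at 1.43 or below, with Mmp11 at -0.38.

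Mmp3, Mmp10, Mmp12 and Mmp13 lie near each other on mouse chromosome 9, in a cluster of 10 metalloprotease genes. The RefSeq gene table orders the cluster as Mmp13, Mmp12, Mmp1b, Mmp3, Mmp1a, Mmp10, Mmp8, Mmp27, Mmp20 and Mmp7, with Mmp1b and Mmp1a between members. The 4 genes of this cluster that passed the filter were the 4 just described, and each rose. Over all genes tested, 33.8% rose. The 6 remaining genes of the cluster were too low to test. Mmp7, Mmp20 and Mmp27 had 0 counts in all 4 libraries, and Mmp8 had 1 count in 1 control library. Mmp1a had 1 count in each c-FOS library and 0 in the control libraries. Mmp1b had counts of 3 and 11 in the c-FOS libraries and of 1 and 0.5 in the control libraries, a ratio of 14.5 (from rounded counts of 14 with c-FOS and 1 in control cells) with an exact 95% interval of 2.21 to 615 that covers counting error only. Mmp1a and Mmp1b are 90.9% identical over 1446 aligned transcript bases, so their reads are uncertain as to gene.

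The genes next to the cluster changed by at most 0.50 on the log2 scale, though Dcun1d5, Dync2h1 and Birc2 passed at 0.05, as did 67.2% of all genes tested. On the Mmp13 side, Dcun1d5, a factor in cullin neddylation, was at 67.7 and 71.8 CPM in the c-FOS libraries against 48.6 and 49.9 CPM in the control libraries (log2 fold change 0.50 ± 0.05), and the ciliary dynein gene Dync2h1 rose by 0.18 on the log2 scale. On the Mmp7 side, Tmem123 did not pass (-0.02, edgeR adjusted p = 0.764) and Birc2, an inhibitor of apoptosis, fell by 0.30 on the log2 scale.

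**Figure D3:**
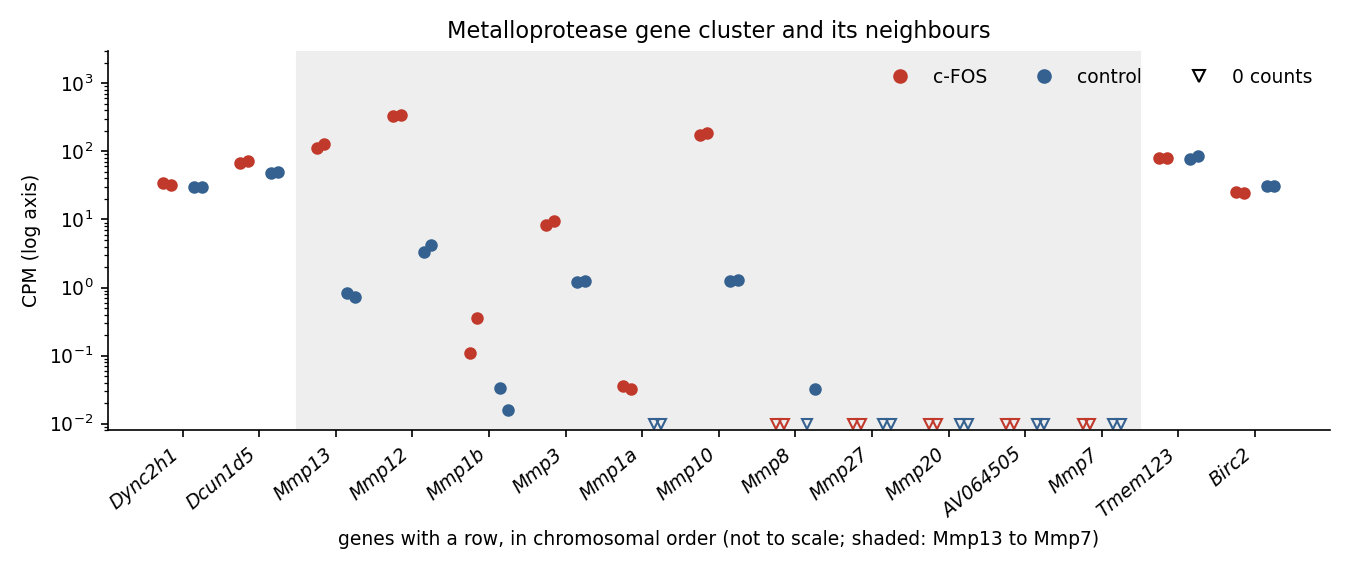
Level in CPM, on a log axis, of the genes of the chromosome 9 metalloprotease cluster and of 2 protein-coding neighbours on each side, in chromosomal order and not to scale, with 1 point per library (c-FOS left, control right; triangles mark 0 counts). Mmp13, Mmp12, Mmp3 and Mmp10 are apart between the groups, the genes from Mmp8 to Mmp7 are at or near 0 in every library, and the neighbours outside the shaded stretch show little distance between groups.

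These 4 genes rose together with the AP-1 subunit gene Fos, and their promoters were read for the AP-1 element. RefSeq promoter windows (build GRCm38.p6, from 250 bases before to 50 bases after the annotated start) were available for 7 of the 10 members, namely Mmp3, Mmp10, Mmp11, Mmp12, Mmp13, Mmp14 and Mmp15. Below are the stretches from 100 bases before the start to 20 bases into the gene, 5′ to 3′ on the gene's own strand, for the 4 cluster members and, for contrast, for Mmp14 and Mmp11. Capitals mark the AP-1 element TGAGTCA, in either orientation, and the TATA element TATAAA. For Mmp12 the window of the second of its annotated starts is shown.
Mmp13, chr9:7272414-7272533, plus strand: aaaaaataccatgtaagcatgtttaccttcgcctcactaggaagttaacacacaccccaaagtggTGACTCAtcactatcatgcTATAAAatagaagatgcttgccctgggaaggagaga
Mmp10, chr9:7502242-7502361, plus strand: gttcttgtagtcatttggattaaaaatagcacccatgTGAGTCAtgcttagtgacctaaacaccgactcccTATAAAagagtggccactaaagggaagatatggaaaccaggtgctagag
Mmp12, chr9:7347274-7347393, plus strand: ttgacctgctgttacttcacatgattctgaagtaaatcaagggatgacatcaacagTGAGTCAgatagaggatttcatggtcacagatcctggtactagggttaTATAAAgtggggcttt
Mmp3, chr9:7445722-7445841, plus strand: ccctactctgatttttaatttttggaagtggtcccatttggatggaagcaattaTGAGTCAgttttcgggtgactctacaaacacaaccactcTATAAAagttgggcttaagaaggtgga
Mmp14, chr14:54431498-54431617, plus strand: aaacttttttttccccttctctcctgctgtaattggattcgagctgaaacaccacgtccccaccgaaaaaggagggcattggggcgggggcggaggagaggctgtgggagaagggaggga
Mmp11, chr10:75932483-75932602, minus strand: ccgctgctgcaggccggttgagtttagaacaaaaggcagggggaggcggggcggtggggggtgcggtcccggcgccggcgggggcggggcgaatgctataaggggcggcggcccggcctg

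All 4 cluster members held 1 AP-1 element, and its leftmost base lay 35 (Mmp13), 44 (Mmp12), 46 (Mmp3) or 63 (Mmp10) bases before the annotated start. In Mmp13 it stands in the reverse orientation. Each also held a TATA element downstream of it, with 19 (Mmp13), 34 (Mmp10), 39 (Mmp3) or 48 (Mmp12) bases from the leftmost base of the AP-1 element to that of the TATA element, so the matches did not overlap. Counted from the annotated start, the TATA element began at -29 (Mmp10), -16 (Mmp13), -7 (Mmp3) and 5 (Mmp12). In Mmp12 it thus lay after the annotated start. The upstream Mmp12 window held neither, and neither did the windows of Mmp11, Mmp14 and Mmp15. Over all 32851 promoter windows of the same length, 5.20% held TGAGTCA on either strand, and 1.43% held it within the 70 bases before the start. Counted per gene, as the members were, the shares were 5.95% and 1.67% of 27025 genes. The limit of 70 bases encloses the matches of all 4 cluster members, so these shares are a description and not a test. Of tested genes with a window 4.86% held it, compared with 12.6% of the 714 genes that rose by 2-fold or more and 4.69% of the 704 genes that fell by 2-fold or more. The 714 genes include the 4 cluster members. The ETS element AGGAAG, searched on both strands, was present in Mmp13 (2 matches), Mmp3, Mmp14 and the upstream Mmp12 window, and in 35.4% of all windows. The CRE-like element TGACGTCA, which reads the same on both strands, was found in no member, against 1.79% of all windows. TATAAA was held by 13.6% of all windows. AGGAAG was held by 36.5% of tested genes with a window, by 43.4% of the 714 that rose and by 32.8% of the 704 that fell. For TATAAA these shares were 8.34%, 13.6% and 9.52%, and for TGACGTCA 3.75%, 2.1% and 3.41%. A higher share among genes that rose was thus not particular to the AP-1 element. A match is a description of these letters and no evidence of binding.

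The membrane-anchored metalloproteases act at the cell surface. Mmp14 is a collagenase of the invasive front and an activator of the Mmp2 precursor. Its level was 595 and 596 CPM in the c-FOS libraries and 364 and 361 CPM in the control libraries, with replicates at most 0.01 apart on the log2 scale. Its log2 fold change was 0.72 ± 0.03 (SE; edgeR adjusted p = 7.57e-10), and 0.58 with libraries scaled by their totals. Mmp15, its closest relative among the members, was at 93.6 and 98.1 CPM in the c-FOS libraries against 79.7 and 71.6 CPM in the control libraries. It rose by 0.34 ± 0.05 on the log2 scale (SE; edgeR adjusted p = 6.38e-05), and by 0.21 with library totals. The groups did not overlap for either gene, as in 83.6% of all genes tested.

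Mmp11, a stromelysin relative that furin activates inside the cell and that tumour stroma often expresses, was the member that fell. It was at 54.0 and 55.1 CPM in the c-FOS libraries, against 72.0 and 70.4 CPM in the control libraries. Both c-FOS libraries lay below both control libraries, and the groups did not overlap in 83.6% of all genes tested. The log2 fold change was -0.38 ± 0.04 (SE, edgeR adjusted p = 5.42e-06). It stayed below 0 under every alternative run, between -0.52 and -0.36.

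The gelatinase genes Mmp2 and Mmp9, whose enzymes cut denatured and basement membrane collagen, showed no increase that passed. Mmp2 was at 4.80 and 4.78 CPM in the c-FOS libraries and at 5.16 and 5.53 CPM in the control libraries, a log2 fold change of -0.16 ± 0.12 (SE; edgeR adjusted p = 0.276). With library totals it passed as lower (-0.30, edgeR adjusted p = 0.0481). Mmp9 had counts of 2 and 1 in the c-FOS libraries and of 2 and 0 in the control libraries, so a change was not detectable at this depth and no fold is given.

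Mmp19, a metalloprotease of basement membrane and epidermis, was low throughout. Its counts were 11 and 17.5 in the c-FOS libraries and 7 and 3.5 in the control libraries, and it passed the filter only through the c-FOS libraries. The log2 fold change of 1.43 ± 0.49 (SE) passed in edgeR (adjusted p = 0.0194). Leaving out control replicate 2 ended the call (1.05, edgeR adjusted p = 0.104), as did leaving out c-FOS replicate 2 (1.12, edgeR adjusted p = 0.224) or the use of DESeq2 (adjusted p = 0.172). Over all alternatives that could test Mmp19, the adjusted p lay between 0.0105 and 0.224.

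Of the 13 other metalloprotease genes in the table, Mmp28, expressed by keratinocytes, was the 1 that was tested. It was at 5.41 and 6.04 CPM in the c-FOS libraries and at 4.57 and 4.97 CPM in the control libraries, and did not pass (0.26 ± 0.13, edgeR adjusted p = 0.088). Of the remaining 12, 5 had 0 counts in all 4 libraries and 7 had at most 11 counts in any library.

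The make-up of the metalloprotease transcript pool differed between the groups. Levels of different genes were set side by side as CPM per kilobase of the deposited gene length. With c-FOS the order was Mmp14 (157 ± 0.320 CPM per kilobase), Mmp10 (105 ± 3.89), Mmp12 (92.2 ± 3.66), Mmp13 (44.7 ± 4.03), Mmp11 (24.0 ± 0.337), Mmp15 (22.3 ± 0.733), Mmp3 (4.94 ± 0.519), Mmp2 (1.57 ± 0.00508), Mmp19 and Mmp9 (SD, n = 2). In control cells it was Mmp14 (95.7 ± 0.639 CPM per kilobase), Mmp11 (31.3 ± 0.472), Mmp15 (17.6 ± 1.33), Mmp2 (1.75 ± 0.0841), Mmp12 (1.03 ± 0.150), Mmp10 (0.737 ± 0.00680), Mmp3 (0.682 ± 0.0205), Mmp13 (0.293 ± 0.0237), Mmp19 and Mmp9. The library values of neighbours in either order did not overlap, though with 2 libraries a group this is a weak statement for Mmp10 and Mmp3 in control cells and for Mmp11 and Mmp15 with c-FOS, which lay close together. It is also weak for Mmp19 and Mmp9 in control cells, with counts of 7 and 3.5 for Mmp19 and of 2 and 0 for Mmp9.

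Mmp3, Mmp10, Mmp12 and Mmp13 together made up 53.9% and 55.4% of the summed CPM per kilobase of the 10 genes in the c-FOS libraries, against 1.75% and 1.93% in the control libraries. Mmp14 and Mmp15 made up 40.4% and 39.0% in the c-FOS libraries and 76.1% and 75.9% in the control libraries. The summed level of the 10 genes was 452 ± 13.5 CPM per kilobase with c-FOS and 149 ± 2.24 CPM per kilobase in control cells (SD, n = 2 per group), 3.03-fold higher. Among all genes tested, Mmp10 was at rank 533 by level per kilobase with c-FOS, against rank 11241 in control cells. Mmp12 was at rank 645 with c-FOS and 10959 in control cells, and Mmp13 at rank 1789 with c-FOS and 11965 in control cells.

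**Figure D4:**
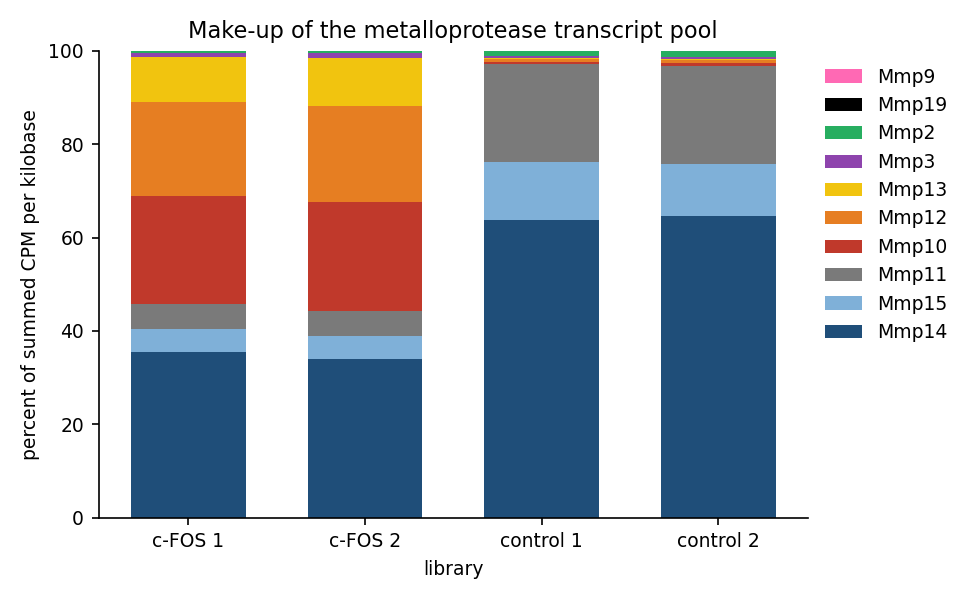
Share of each metalloprotease gene in the summed CPM per kilobase of the 10 genes, in percent, as 1 stacked bar per library. Mmp14, Mmp15 and Mmp11 fill nearly the whole bar in both control libraries, while Mmp10, Mmp12 and Mmp13 take more than the shares of Mmp14 and Mmp15 together in both c-FOS libraries.

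Inhibitor transcripts rose as well. Of the 6 inhibitor genes listed, 3 were tested and all 3 rose, beside 33.8% of all genes tested that rose. Timp1, an inhibitor of most secreted metalloproteases and a known AP-1 responsive gene, was at 88.8 and 84.0 CPM in the c-FOS libraries against 3.63 and 3.37 CPM in the control libraries (log2 fold change 4.62 ± 0.08). Timp3, the inhibitor that binds to the matrix, was at 6950 and 6747 CPM in the c-FOS libraries against 1768 and 1930 CPM in the control libraries (1.89 ± 0.05). Timp2, which also takes part in the activation of Mmp2 by Mmp14, was at 2979 and 2969 CPM in the c-FOS libraries against 1486 and 1468 CPM in the control libraries (1.01 ± 0.04). Timp4 and A2m were at 0 counts in every library and the membrane-anchored inhibitor gene Reck had 0.5 counts in 1 control library and 0 in the others. Summed per kilobase, the Timp genes were at 2412 and 2360 CPM per kilobase in the c-FOS libraries and at 794 and 823 CPM per kilobase in the control libraries. The sum of the 10 metalloprotease genes divided by that of the Timp genes was 0.184 and 0.196 in the c-FOS libraries, against 0.190 and 0.179 in the control libraries, so the ranges of the groups overlapped.

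**Figure D5:**
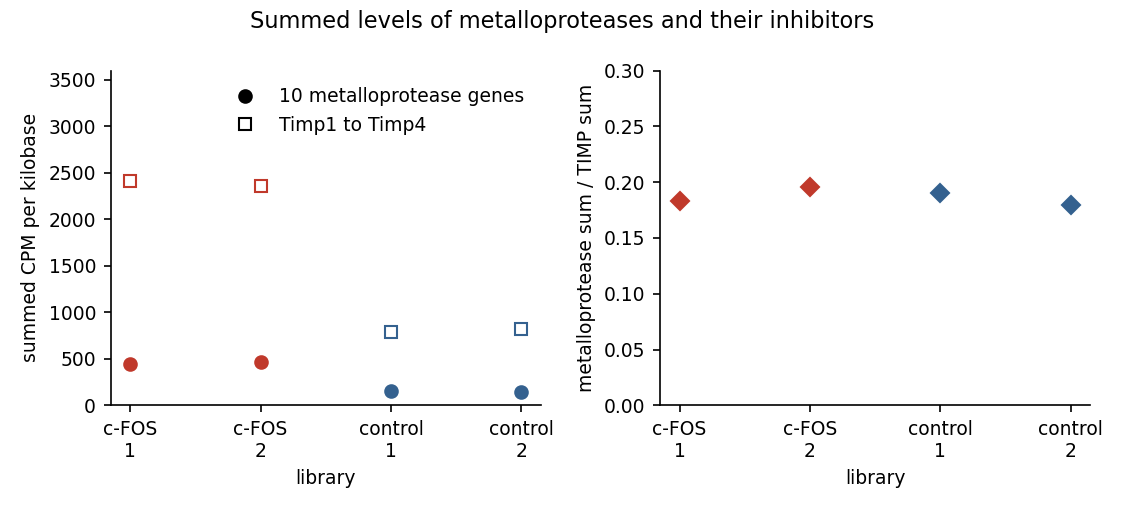
Left, summed CPM per kilobase of the 10 metalloprotease genes (circles) and of the Timp genes (open squares) in each library; right, the ratio of these sums per library. The sums of both kinds are higher in both c-FOS libraries, and the ratio lies between 0.179 and 0.196 in all 4 libraries.

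Among the genes whose products activate metalloprotease precursors or generate plasmin, 7 of 10 were tested, 5 rose and 2 fell. Their median log2 fold change was 0.40, against -0.01 over all genes, of which 33.8% rose and 33.4% fell. Plaur, the receptor that holds urokinase at the cell surface, was at 66.2 and 66.3 CPM in the c-FOS libraries against 0.471 and 0.942 CPM in the control libraries. Its log2 fold change was 6.51 ± 0.13, and it was 7.13 when control replicate 2 was left out and 6.11 when control replicate 1 was left out. The plasminogen activator gene Plat rose by 1.36 ± 0.06 on the log2 scale. St14, which encodes the epithelial membrane protease matriptase, fell by 1.92 ± 0.08 and the proprotein convertase gene Pcsk6 fell by 0.42 ± 0.10 on the log2 scale. Plg, which encodes plasminogen itself, had at most 2 counts in a library.

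Of the 7 surface partners that dock or clear metalloproteases, 6 were tested, 4 rose, 1 fell and 1 did not pass (median log2 fold change 0.41). The shares over all genes tested were 33.8% that rose and 33.4% that fell. The integrin gene Itgb3 rose by 3.06 ± 0.08 and Itgav, its partner in an integrin known to bind Mmp2, rose by 0.72 ± 0.04 on the log2 scale. Cd44, the hyaluronan receptor that docks Mmp14 and Mmp9 in other cells, was at 777 and 776 CPM in the c-FOS libraries against 374 and 379 CPM in the control libraries (1.05 ± 0.03). The proteoglycan gene Sdc1 fell by 0.36 ± 0.04 on the log2 scale.

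Of 17 genes for matrix substrates, 14 were tested, 11 rose, 2 fell and 1 did not pass (median log2 fold change 0.61). Over all genes tested, 33.8% rose and 33.4% fell. Fn1, which encodes fibronectin, was at 13367 and 12998 CPM in the c-FOS libraries against 1102 and 1203 CPM in the control libraries (3.52 ± 0.05). The collagen gene Col1a2 rose by 2.67 ± 0.25 and the proteoglycan gene Vcan by 1.97 ± 0.27 on the log2 scale, both at low levels. Lama3, which encodes a laminin chain, fell by 0.68 ± 0.04 on the log2 scale.

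Of 14 genes for transcription factors with known sites in metalloprotease promoters, 10 rose, 2 fell and 2 did not pass (median log2 fold change 0.46). Beside this, 33.8% of all genes tested rose and 33.4% fell. Besides Fos, the largest increases were those of its relative Fosl1, at 5.07 and 5.15 CPM in the c-FOS libraries against 0.151 and 0.0639 CPM in the control libraries, which passed the filter only through the c-FOS libraries, and of the ETS factor gene Etv5 (1.59 ± 0.27). The log2 fold change of Fosl1 was 5.64, on control counts of 4.5 and 2. It was 6.24 when control replicate 1 was left out and 5.21 when control replicate 2 was left out. The FOS partner genes Jun and Junb fell by 0.75 ± 0.04 and 0.31 ± 0.05 on the log2 scale, while the partner gene Jund rose by 0.48 ± 0.04. Jund was at 440 and 441 CPM in the c-FOS libraries against 328 and 304 CPM in the control libraries.

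Metalloproteases are also made by other cell types, whose markers were read in the same libraries. Of 8 fibroblast markers, 5 stayed below 1 CPM in every library, among them Col3a1, Dcn, Lum and Thy1 (Thy1 at 0 counts), while Col1a2, Pdgfra and Pdgfrb (0 counts in control cells, so tested only through the c-FOS libraries) rose and 1 of those tested did not pass; Col1a1, Col1a2 and Col3a1 are also on the substrate list, and the summed level of the 8 was 17.7 to 19.1 CPM with c-FOS and 5.40 to 5.65 CPM in control cells. Of 5 neutrophil markers, all stayed below 1 CPM in every library, with Ly6g, S100a9 and Elane at 0, and S100a8 rose to 0.431 and 0.549 CPM in the c-FOS libraries against 0.0673 and 0 CPM in the control libraries, having passed the filter only through the c-FOS libraries. Of 5 endothelial markers, 3 stayed below 1 CPM, with Kdr at 0, and Pecam1 and Tek rose by 0.31 and 1.38 on the log2 scale; their summed level was 102 to 103 CPM with c-FOS and 80.6 to 83.9 CPM in control cells. Of 7 basal keratinocyte markers, 5 fell, 1 rose and 1 did not pass, and their summed level was 9395 to 9736 CPM with c-FOS and 19665 to 19870 CPM in control cells. Among all genes tested, 33.8% rose and 33.4% fell. The part of these cell type markers in the metalloprotease values was not tested.

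By the distance between mean-centred log2 CPM values over the 4 libraries (0.5 added), the genes outside the family with the pattern most like that of Mmp13 were Col6a3, a collagen VI chain (distance 0.173), Lrrc15, a leucine-rich repeat membrane protein (0.227), and Inpp4b, an inositol phosphatase (0.329). Lrrc15 was at 95.5 and 104 CPM in the c-FOS libraries against 0.420 and 0.463 CPM in the control libraries, Inpp4b at 319.9 and 310.2 CPM with c-FOS against 2.29 and 2.78 CPM in control cells, and Col6a3 at 39.4 and 43.5 CPM with c-FOS against 0 counts in control cells. Col6a3 had no counts in control cells, and the control levels of Lrrc15 and of Mmp13 itself are near the 0.5 added, so these distances depend on it. The fitted log2 fold change was 7.86 for Lrrc15 and 6.95 for Inpp4b, against 7.27 for Mmp13. That of Col6a3, 13.3, rests on 0 control counts.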

How the data were processed

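The authors deposited expected counts, not normalized, per gene symbol and in steps of 0.5. Per the series design text, reads that passed quality filters went through TopHat and then HOMER. The submitters' processing notes name mm9 as build and also DESeq2, without its role. Versions, annotation and strand setting were not given in the sources used here. Of 24909 rows, 2 symbols occurred 2 times, each kept as its row of higher total. Counts were rounded (ties to even) and tested across all genes with edgeR 4.0.16 (R 4.3.3): filterByExpr by group (minimum count 10, minimum total 15), TMM factors, a two-sided quasi-likelihood test between the groups with no covariate, Benjamini-Hochberg adjustment at 0.05, first tested on simulated data. CPM uses TMM library sizes; the SE of a fold change comes from the quasi-likelihood F. Replicates of a group differed beyond sampling noise (chi-square per degree of freedom 1.98 with c-FOS and 5.01 in control), so none was treated as a repeat deposit. The alternatives were RLE, upper-quartile and library-total scaling, no filter and a minimum count of 50, DESeq2 1.42.0, unrounded counts, the replicate block, and each library left out. Promoter coordinates are GRCm38.p6 and none were converted from mm9; transcripts were from GENCODE M21. The members and lists were chosen with earlier results of these data known. All members, the tested genes of the other Mmp and inhibitor lists, and in each other list the 3 called genes with the largest change and those against its majority were named; other genes named were chosen after their values were seen. For 1 gene of the substrate list, the individual result is not reported here.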

Additional observations from a re-analysis of the deposited data

How the results depend on the processing

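Over 12 alternatives, the number of genes called lay between 7273 and 9061, against 8589, and the number of metalloprotease genes called between 7 and 9, against 8 (7 higher and 1 lower). Leaving out 1 library gave 7273 to 8861 genes and 7 or 8 metalloprotease genes. Mmp3, Mmp10, Mmp11, Mmp12, Mmp13, Mmp14 and Mmp15 passed in the same direction under all 12. The log2 fold change stayed between 7.13 and 7.36 for Mmp13, 7.01 and 7.19 for Mmp10, 6.34 and 6.65 for Mmp12, and 2.71 and 2.95 for Mmp3. Mmp19 lost its call under 3 alternatives and had no value at a minimum count of 50, since it failed that filter. Mmp2 passed only with library totals. The log2 ratio of the summed metalloprotease level was 1.42 without division by length, against 1.60 with it, since the genes that rose most have shorter models than Mmp14. Without the filter Mmp1b also passed (edgeR adjusted p = 0.0117), on few counts. The replicate numbers are not known to pair the libraries: deviations of equally numbered libraries had a correlation of -0.08 over genes, and with the replicate block 8453 genes and 8 metalloprotease genes passed. For Mmp9, Mmp19 and most of the other Mmp genes, counts of 17.5 or fewer limit what can be seen.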
